A study of Mus musculus with 50 samples.

Results

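RNA of 10 transcription factors that steer myeloid fate (Spi1, Cebpa, Cebpb, Cebpd, Cebpe, Gfi1, Irf8, Klf4, Runx1 and Id2) was followed through 50 RNA-seq libraries of mouse blood-forming cells. The genes were taken by name from 33924 gene symbols in each of 2 deposited count tables, and all 10 had a row, Spi1 under its older symbol Sfpi1. Levels are given as CPM, the counts of a gene per 1000000 counts of its library, with no further scaling. LSK (lineage-negative, Sca1+, Kit+ cells, the fraction that holds the stem cells) and GMP (granulomyeloid progenitors) came from Flt3 mutant mice at 2, 4, 6 and 8 weeks and from WT mice at 4 weeks, with 3 libraries in each group. In a second table LSK and GMP came from Npm1 Flt3 mice (4 libraries each) and Dnmt3a Flt3 mice (3 each), and lineage-negative stem and progenitor cells (Lin- HSPCs) from Npm1 Flt3 mice after 7 days of tamoxifen (TAM) or vehicle (3 each). The Npm1 Flt3 and Dnmt3a Flt3 mice all carry the Flt3 mutation as well, and in the TAM mice Cre activation by tamoxifen deletes the mutant Flt3 allele.

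Several features limit these groups as models. Recombination by Cre, Dre or Flp switched the mutations on, and the labels do not give the recombinase or its driver for each mouse. Mice were taken at the stated time or once they were ill, and no time is given for the Npm1 Flt3 and Dnmt3a Flt3 mice. WT cells were sampled at 4 weeks only, and the library codes of WT and Flt3 mice come from separate series, so an effect of genotype cannot be told apart from one of the code series. The second table holds no WT or Flt3-only library, and the tables were not tested against each other. The labels do not say that each library is a separate mouse, so p-values measure the spread between these libraries, which may be in part technical. In sorted bulk RNA, fewer cells of a type and less RNA per cell cannot be told apart.

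Spi1 encodes PU.1, which with Runx1 and C/EBP alpha (the product of Cebpa) opens the myeloid programme in early progenitors. Granulocyte fate then leans on Gfi1, a zinc-finger repressor, and on Cebpe, which runs the later granule genes, while Irf8 and Klf4 favour monocytes and dendritic cells. Id2 encodes an inhibitor that binds E proteins and keeps them off DNA, and is needed for several dendritic and innate lymphoid cells.

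The 250 bases upstream of a transcription start are printed for 4 members whose window held no annotated exon, because they contrast Irf8 and Klf4, whose RNA was higher in Flt3 GMP than in WT GMP at all 4 times, with Cebpa and Cebpb, whose RNA was not. They come from RefSeq on GRCm38.p6, 5′ to 3′ on the gene's strand, and 7 of the 10 members had an entry. Capitals mark TTCNNNGAA, the palindrome bound by STAT factors, which act downstream of cytokine receptors.
Irf8, chr8:120736108-120736357, + strand: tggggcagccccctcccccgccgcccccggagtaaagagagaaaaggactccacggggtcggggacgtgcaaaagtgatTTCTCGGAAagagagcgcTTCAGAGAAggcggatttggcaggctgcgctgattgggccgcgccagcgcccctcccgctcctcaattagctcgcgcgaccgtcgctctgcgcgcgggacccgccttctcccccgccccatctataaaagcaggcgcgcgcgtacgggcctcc
Klf4, chr4:55532476-55532725, - strand: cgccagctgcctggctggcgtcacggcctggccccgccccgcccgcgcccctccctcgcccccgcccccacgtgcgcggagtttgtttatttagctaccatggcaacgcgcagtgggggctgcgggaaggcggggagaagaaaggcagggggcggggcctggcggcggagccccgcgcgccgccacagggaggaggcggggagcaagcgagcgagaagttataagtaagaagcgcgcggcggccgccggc
Cebpa, chr7:35119043-35119292, + strand: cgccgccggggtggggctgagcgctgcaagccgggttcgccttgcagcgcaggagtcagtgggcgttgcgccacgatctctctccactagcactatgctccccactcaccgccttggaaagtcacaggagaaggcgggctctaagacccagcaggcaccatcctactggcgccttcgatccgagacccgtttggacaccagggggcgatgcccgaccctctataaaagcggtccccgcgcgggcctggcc
Cebpb, chr2:167688665-167688914, + strand: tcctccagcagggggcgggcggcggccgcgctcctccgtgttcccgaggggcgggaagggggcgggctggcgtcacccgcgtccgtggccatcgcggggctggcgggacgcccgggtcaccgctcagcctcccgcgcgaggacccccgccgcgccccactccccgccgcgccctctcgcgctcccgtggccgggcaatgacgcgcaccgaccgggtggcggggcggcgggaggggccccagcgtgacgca
The Irf8 window above held 2 matches to TTCNNNGAA. None was found in the other windows searched, where the 7 members had 10 windows in all. Those without a match include a second start of Irf8 and the starts of Runx1, which was also higher in Flt3 GMP at all 4 times. Of 32851 RefSeq promoter windows of this length, 7.02% held this motif. Both strands were searched, also for GAGGAAGT (a PU.1 site, in 2.44% of windows) and TTGCNNAA (a C/EBP site, in 9.56%), and neither was found in the 4 windows above. A Gfi1 window that overlapped annotated exons held 1 match to TTGCNNAA, at -143. A match is a run of letters and not a shown binding site, and no match says only that the letters are not in the window.

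Total counts lay between 306571 and 8249135 in 29 libraries of the first table and between 15053592 and 128057407 in the second. Flt3 8-week GMP replicate 2 held only 1942 counts, so it enters the fits but no level given here. It moved fits that scale by median-ratio factors: with DESeq2, 912 genes were called between Flt3 GMP and WT GMP over all libraries and 2314 when it was left out, and values of DESeq2 are given both ways where they differ in call. Dnmt3a Flt3 LSK replicate 1 and GMP replicate 2 have titles and sample codes that name different cell types and were left out unless stated, although their markers follow their titles (Mpo at 2608 and 41327 CPM). For Mpo and Ly6a the sorted fractions followed their labels: Mpo, a granule gene of GMP, lay at 2296 to 3801 CPM in WT LSK and 33262 to 43365 CPM in WT GMP, and Ly6a, which encodes Sca1, at 84.1 to 134 and 1.97 to 4.98 CPM. In Flt3 mice Mpo lay at 1230 to 4485 CPM in LSK and 11406 to 27058 CPM in GMP, and Ly6a at 87.8 to 380 and 3.34 to 18.1 CPM. Other markers of Flt3 LSK differed from WT LSK, as given below. Flt3 itself, mutant and normal allele counted together, lay at 106 to 173 CPM in Flt3 GMP and 16.8 to 28.2 CPM in WT GMP. Tests below are edgeR quasi-likelihood F tests with Benjamini-Hochberg adjustment over all genes tested, a gene is called at an adjusted p under 0.05, and errors on log2 fold changes are standard errors. The 10 genes lie on GRCm38 (GENCODE vM21 annotation), Spi1 at chr2:91082390-91115756, Cebpa at chr7:35119293-35121928, Cebpb at chr2:167688915-167690418, Cebpd at chr16:15887286-15891031, Cebpe at chr14:54710360-54712174, Gfi1 at chr5:107716657-107726036, Irf8 at chr8:120736358-120756694, Klf4 at chr4:55527143-55532466, Runx1 at chr16:92601466-92826149 and Id2 at chr12:25093799-25097140. The strand of counting is not stated, so reads of Cebpb and of the antisense-overlapping Tmem189, and of Gfi1 and A430072P03Rik, cannot be told apart.

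In WT mice 7 of the 10 factors were lower in LSK than in GMP and none was called higher, where 29.6% of all tested genes were called and 13.5% called lower. Cebpe, Cebpd and Gfi1 differed most. Cebpe is among the 7, but it passed the filter on low counts through GMP, where it is high. Its difference is therefore a description only. Cebpe had 2.46, 2.47 and 8.83 CPM in WT LSK, against 18.7, 54.8 and 61.7 CPM in WT GMP, and Cebpd, a C/EBP factor of later granulocytes and of inflammation, had 15.1, 33.4 and 25.7 CPM in LSK, against 106, 99.5 and 119 CPM in GMP. Neither gene's LSK and GMP ranges overlapped. The log2 fold changes were -3.50 ± 0.50, adjusted p = 3.46e-07 for Cebpe and -2.54 ± 0.33, adjusted p = 6.62e-08 for Cebpd. Gfi1 had 22.8, 42.0 and 38.4 CPM in WT LSK and 98.5, 95.6 and 105 CPM in WT GMP, also with no overlap, a log2 fold change of -1.91 ± 0.27, adjusted p = 3.21e-07.

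The other factors differed by less between WT LSK and WT GMP. Cebpa had 9.12, 11.1 and 15.0 CPM in WT LSK and 12.8, 30.4 and 25.5 CPM in WT GMP, so that 1 GMP library lay within the LSK range, and its log2 fold change was -1.31 ± 0.34, adjusted p = 0.0026. Cebpb, a C/EBP factor used in granulocyte production under stress, gave -1.26 ± 0.21, adjusted p = 1.44e-05, and Irf8 gave -1.45 ± 0.34, adjusted p = 0.0028. Spi1 gave -0.82 ± 0.26, adjusted p = 0.0201, a call that ended with median-ratio size factors (-0.59, adjusted p = 0.0937), with library size alone (-0.48, adjusted p = 0.123), with DESeq2 (-0.60, adjusted p = 0.131, but -0.84, adjusted p = 0.00416 without the near-empty library) and without WT LSK replicate 1 (-0.68, adjusted p = 0.0934), WT LSK replicate 2 (-0.72, adjusted p = 0.072) or WT GMP replicate 3 (-0.74, adjusted p = 0.0717). Runx1 had 67.7, 63.0 and 46.5 CPM in WT LSK and 18.7, 39.3 and 36.2 CPM in WT GMP, which did not overlap, and its difference of 0.52 ± 0.25, adjusted p = 0.106 was called only with median-ratio size factors (0.75, adjusted p = 0.018) and with library size alone (0.86, adjusted p = 0.00611). Id2 had 18.9, 39.6 and 57.6 CPM in WT LSK and 12.8, 11.0 and 17.4 CPM in WT GMP with a narrow gap and no call (1.16 ± 0.72, adjusted p = 0.245). Klf4 had 1 count in WT LSK and 0 in WT GMP, which allows no fold. The median log2 fold change over the 9 members with a fold was -1.31, against 0.12 over all genes tested, and other scalings moved the median of all genes to 0.35 (median-ratio) and 0.46 (library size alone), with 75.8% and 83.2% of called genes higher in LSK in place of 54.4%. DESeq2, which uses median-ratio factors, gave a median of 0.35 and 75.8% higher over all libraries, but a median of 0.12 and 52.0% higher once the near-empty library was left out.

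In Flt3 mice, taking the mean of the 4 times, 8 factors were lower in LSK than in GMP and none higher, where 17.8% of all genes were called and 8.79% called lower. Cebpe stood at 0 to 1.21 CPM over 12 Flt3 LSK libraries, with no count in 5 of them, and at 4.53 to 46.5 CPM over 11 Flt3 GMP libraries. Cebpe, Cebpd and Cebpa had no overlap between Flt3 LSK and Flt3 GMP libraries and the other 7 genes overlapped, where 1.22% of all genes tested had none. The log2 fold changes were -5.38 ± 0.42 for Cebpe, -3.07 ± 0.23 for Cebpd, -1.64 ± 0.19 for Cebpa and -0.93 ± 0.17 for Gfi1. Cebpe is among the 8 and again passed the filter on low counts through GMP, so its value and its lack of overlap are a description only. Smaller differences were called for Cebpb (-0.83 ± 0.11), Irf8 (-0.68 ± 0.16), Spi1 (-0.67 ± 0.14) and Runx1 (-0.38 ± 0.12). The Runx1 call (adjusted p = 0.0236) ended with DESeq2 (0.25, but 0.0352 without the near-empty library), with median-ratio scaling (0.0661), with library size alone (0.103), without the 2-week libraries (0.204) and without Flt3 4-week GMP replicate 2 (0.0802), 8-week LSK replicate 1 (0.0871) or 8-week GMP replicate 3 (0.151), all as adjusted p. Klf4 (-0.42 ± 0.37, adjusted p = 0.522) and Id2 (0.28 ± 0.26, adjusted p = 0.56) were not called. Median-ratio scaling and library size alone placed 61.8% and 69.1% of called genes higher in LSK, in place of 50.7%, and DESeq2 without the near-empty library placed 51.9%.

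**Figure D1:**
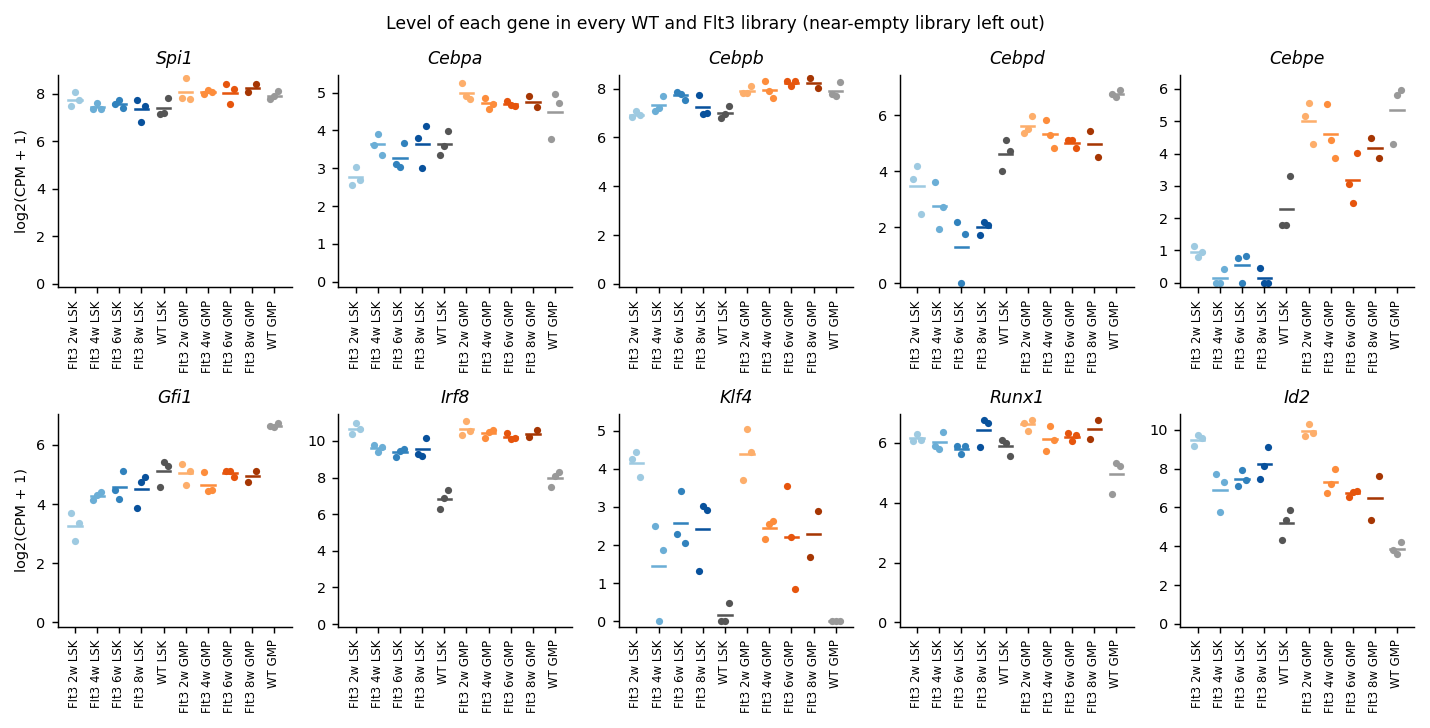
Level of each of the 10 genes in every WT and Flt3 library as log2(CPM + 1), with LSK groups on the left and GMP groups on the right of each panel, Flt3 by week and then WT at 4 weeks. Points are libraries and lines are group means over 3 libraries (2 for Flt3 8-week GMP). In GMP, Irf8, Klf4, Runx1 and Id2 stand higher in every Flt3 group than in WT, and Cebpd and Gfi1 lower.

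Averaged over 2 to 8 weeks, Irf8, Klf4, Runx1 and Id2 rose in Flt3 GMP against WT GMP and Cebpd, Cebpe and Gfi1 fell, which is 7 of 10 members where 26.2% of all 9122 genes tested were called. By time the counts were 4 higher and 2 lower at 2 weeks and at 4 weeks (27.2% and 15.0% of genes called), and 4 higher and 3 lower at 6 and at 8 weeks (17.7% and 16.2%). Klf4, which passed the filter on low counts through the 2-week libraries where it was high, is in each of these counts, and without it the mean gave 6 of 9. Spi1, Cebpa and Cebpb were not called. The members' median log2 fold change was 0.07 with Klf4 at its lower bound, against 0.04 over all genes. The comparisons at the 4 times share the same 3 WT libraries. Other scalings left the same 7 members called, while higher genes made up 66.9% with median-ratio factors and 66.1% of called genes with library size alone, in place of 49.8%, and 47.5% with DESeq2 without the near-empty library.

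Gfi1 was lower at each of the 4 times. It had 39.7, 24.0 and 33.7 CPM at 2 weeks, 33.2, 20.5 and 21.0 at 4 weeks, 34.1, 33.5 and 29.4 at 6 weeks and 25.6 and 34.1 at 8 weeks in Flt3 GMP, against 98.5, 95.6 and 105 CPM in WT GMP. All 11 Flt3 libraries lay below all 3 WT libraries by a wide gap. The mean log2 fold change was -1.87 ± 0.18, adjusted p = 1.12e-11, and by time it was -1.43 ± 0.24, -2.25 ± 0.27, -1.85 ± 0.24 and -1.94 ± 0.29.

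Cebpd had 40.8, 44.9 and 61.3 CPM at 2 weeks, 55.9, 38.5 and 27.3 at 4 weeks, 33.5, 33.5 and 27.8 at 6 weeks and 42.3 and 22.0 at 8 weeks in Flt3 GMP, and 106, 99.5 and 119 CPM in WT GMP. Again no Flt3 library reached the WT range. Its mean log2 fold change was -1.66 ± 0.18, adjusted p = 7.96e-10. By time it was -0.96 ± 0.24 at 2 weeks, -1.66 ± 0.26 at 4, -2.0 ± 0.25 at 6 and -2.02 ± 0.30 at 8 weeks, and the 2-week value lost its call with DESeq2 (adjusted p = 0.14) but not with DESeq2 without the near-empty library (-0.99, adjusted p = 0.00142).

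Cebpe was more scattered, with 35.1, 46.5 and 18.8 CPM at 2 weeks, 45.4, 20.5 and 13.7 at 4, 7.38, 4.53 and 15.1 at 6 and 21.1 and 13.5 at 8 weeks, against 18.7, 54.8 and 61.7 CPM in WT GMP. The WT libraries themselves spread 3-fold and overlap the Flt3 libraries of all times but 6 weeks. The mean log2 fold change was -1.43 ± 0.35, adjusted p = 0.00451 (-1.23, adjusted p = 0.0738 with DESeq2, and -1.38, adjusted p = 0.00185 with DESeq2 without the near-empty library). It was -2.56 ± 0.51, adjusted p = 0.00141 at 6 weeks, -1.65 ± 0.55, adjusted p = 0.0473 at 8 weeks, and not called at 2 weeks (-0.43 ± 0.44) or 4 weeks (-1.07 ± 0.48). The 8-week call ended under 9 alternatives, among them leaving out the near-empty library (-1.65, adjusted p = 0.0644), 8-week replicate 1 (-2.01, adjusted p = 0.0824) or 3 (-1.33, adjusted p = 0.361) and WT replicate 2 (-1.51, adjusted p = 0.11) or 3 (-1.39, adjusted p = 0.118). With DESeq2 it was -1.46, adjusted p = 0.24 over all libraries and -1.62, adjusted p = 0.0253 once the near-empty library was left out. At 4 weeks a call appeared without Flt3 replicate 1 (-1.65, adjusted p = 0.0265) or WT replicate 1 (-1.39, adjusted p = 0.0292).

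Irf8 had 1267, 2182 and 1464 CPM at 2 weeks, 1162, 1415 and 1563 at 4, 1363, 1111 and 1136 at 6 and 1179.8 and 1529 at 8 weeks in Flt3 GMP, against 176, 269.8 and 321 CPM in WT GMP. Every Flt3 library stood above the highest WT library at least 3-fold. The mean log2 fold change was 2.29 ± 0.24, adjusted p = 1.77e-08, with 2.84 ± 0.28 at 2 weeks and 2.00 ± 0.27 to 2.22 ± 0.27 from 4 to 8 weeks. No alternative tried ended the Irf8 call in GMP at any of the 4 times.

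Klf4, a zinc-finger factor of monocyte fate, had no count in any WT GMP library, so its fold is a lower bound against a floor of 3 counts over the summed WT total and covers counting error only. In Flt3 GMP it had 12.1, 32.0 and 20.7 CPM at 2 weeks, 3.49, 4.82 and 5.25 at 4, 10.8, 3.63 and 0.795 at 6 and 2.22 and 6.39 at 8 weeks. With counts pooled over all Flt3 GMP libraries it was at least 20.02-fold higher, but 212 of these 258 counts came from the 2-week libraries. The F test of the mean of 4 times, which weighs the times alike, gave an adjusted p of 5.69e-05. By time Klf4 was at least 30.1-fold, 7.03-fold, 8.76-fold and 7.17-fold higher at 2, 4, 6 and 8 weeks. The counts were small after 2 weeks, with 11, 24 and 11 in all at 4, 6 and 8 weeks, against 212 at 2 weeks. Since Klf4 could be tested at later times only because of its 2-week counts, its calls there are a description. With no filter on low counts the adjusted p was 0.00147 at 4, 0.000151 at 6 and 0.00185 at 8 weeks. The 6-week call ended without Flt3 replicate 1 (adjusted p = 0.0524) and the 8-week call without Flt3 replicate 3 (adjusted p = 0.18).

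Id2 had the largest fold change of the members with counts in WT GMP. It had 824, 1246 and 902 CPM at 2 weeks, 105, 144 and 249 at 4, 92.5, 109.7 and 112 at 6 and 40.0 and 192 at 8 weeks in Flt3 GMP, and 12.8, 11.0 and 17.4 CPM in WT GMP, with no overlap. The log2 fold change was 6.34 ± 0.57, adjusted p = 7.52e-06 at 2 weeks, 3.43 ± 0.58 at 4, 2.71 ± 0.59 at 6 and 2.92 ± 0.62 at 8 weeks. Without Flt3 8-week replicate 3 the 8-week value was 1.34, adjusted p = 0.0791, which rests on 1 full library and the near-empty one.

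Runx1, the core-binding factor of blood stem and progenitor cells, had 102, 83.3 and 109 CPM at 2 weeks, 52.4, 93.9 and 68.3 at 4, 78.9, 66.2 and 75.5 at 6 and 68.9 and 109 at 8 weeks in Flt3 GMP, against 18.7, 39.3 and 36.2 CPM in WT GMP. The Flt3 and WT ranges did not overlap at any time. Its mean log2 fold change was 1.23 ± 0.20, adjusted p = 7.41e-06. The call at 4 weeks (0.96 ± 0.25) ended without Flt3 replicate 2 (adjusted p = 0.108), without WT replicate 1 (adjusted p = 0.0556) and with DESeq2 (adjusted p = 0.0932), the 6-week call with DESeq2 (adjusted p = 0.0638) and the 8-week call without Flt3 replicate 3 (adjusted p = 0.127). With DESeq2 without the near-empty library both were called, at 0.96, adjusted p = 0.00631 at 4 weeks and 0.96, adjusted p = 0.00327 at 6 weeks.

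Spi1, Cebpa and Cebpb overlapped WT at every time in GMP. Spi1 ranged over 186 to 402 CPM in Flt3 GMP and 217 to 272 CPM in WT GMP. Cebpa ranged over 22.9 to 37.4 and 12.8 to 30.4 CPM, and Cebpb over 195 to 348 and 206 to 309.9 CPM, in that order of genotype. The mean log2 fold changes were 0.08 ± 0.19, adjusted p = 0.819 for Spi1, 0.06 ± 0.25, adjusted p = 0.908 for Cebpa and 0.03 ± 0.15, adjusted p = 0.931 for Cebpb. None of the 3 passed the threshold at any of the 4 times.

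**Figure D2:**
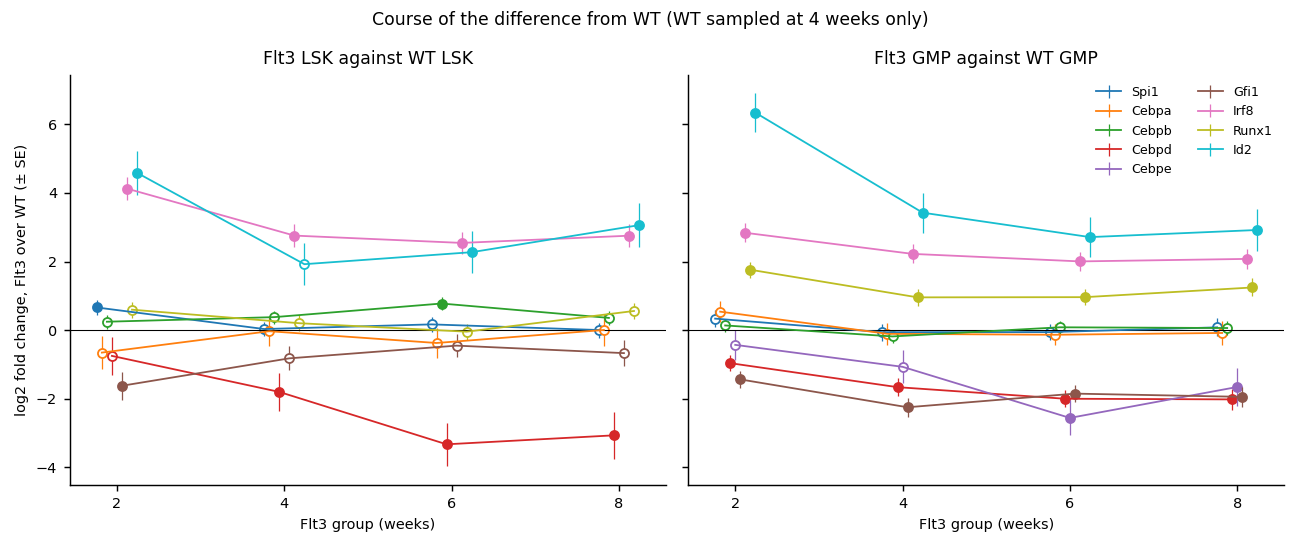
Log2 fold change of Flt3 over WT (± SE) at 2, 4, 6 and 8 weeks in LSK (left) and GMP (right) for each gene but Klf4, which WT libraries hold at 0 or 1 count. Cebpe is not drawn in LSK, where it did not pass the filter on low counts. Filled points have an adjusted p under 0.05, open points do not, and all points of a panel share the same 3 WT libraries. Irf8 and Id2 lie above 0 at every time in both fractions and Gfi1 and Cebpd lie below 0.

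In LSK the mean over 4 times gave 5 called members of the 9 tested, with Irf8, Klf4 and Id2 higher and Cebpd and Gfi1 lower in Flt3 LSK, where 15.0% of all genes tested were called. By time 4 were higher and 1 lower at 2 weeks (19.1% of genes called), 1 and 1 at 4 weeks (10.1%), 4 and 1 at 6 weeks (9.27%) and 3 and 1 at 8 weeks (8.85%). Klf4 passed the filter through the 2-week libraries and is among those higher at 2, 6 and 8 weeks; without it the mean gave 4 of 8. Cebpe did not pass the filter on low counts in LSK: it had 32 counts over the 3 WT LSK libraries and 3, 1, 3 and 1 counts over the Flt3 libraries of 2, 4, 6 and 8 weeks. The ratio of Flt3 to WT CPM for Cebpe was 0.178 at 2 weeks (95% exact counting interval 0.0348 to 0.57) and 0.0350 at 4 weeks (0.000859 to 0.209), and at each time the Flt3 libraries lay below WT. The median log2 fold change of the 9 was 0.33, against 0.00 over all genes. With library size alone the same 5 were called, while higher genes made up 30.1% of calls in place of 46.1%.

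Irf8 in Flt3 LSK had 1307, 1994 and 1634 CPM at 2 weeks, 860.4, 665 and 817 at 4, 565, 697 and 742 at 6 and 634, 587 and 1138 at 8 weeks, against 75.4, 119 and 161 CPM in WT LSK. All Flt3 libraries lay above all WT libraries. The log2 fold change was 4.13 ± 0.34, adjusted p = 5.31e-06 at 2 weeks, 2.76 ± 0.33 at 4, 2.54 ± 0.33 at 6 and 2.75 ± 0.33 at 8 weeks, called at each time and under each alternative tried.

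Id2 had 567, 859 and 772 CPM at 2 weeks, 209, 52.4 and 157 at 4, 136, 240.2 and 167 at 6 and 176, 275 and 545 at 8 weeks in Flt3 LSK, and 18.9, 39.6 and 57.6 CPM in WT LSK. Only Flt3 4-week replicate 2 fell within the WT range. The log2 fold change was 4.59 ± 0.64, adjusted p = 0.000485 at 2 weeks, 1.92 ± 0.61, adjusted p = 0.0804 at 4, 2.27 ± 0.62, adjusted p = 0.0444 at 6 and 3.06 ± 0.63, adjusted p = 0.0121 at 8 weeks. The 4-week value was called without Flt3 replicate 2 (2.29, adjusted p = 0.0359) and with DESeq2 (1.88, adjusted p = 0.0163), and the 6-week call ended without any 1 of its 6 libraries (adjusted p 0.0704, 0.135 and 0.0915 without Flt3 replicates 1, 2 and 3, and 0.159, 0.109 and 0.0623 without WT replicates 1, 2 and 3).

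Klf4 had a single count in WT LSK. In Flt3 LSK it had 18.1, 21.0 and 12.8 CPM at 2 weeks, 4.68, 0 and 2.64 at 4, 3.86, 9.67 and 3.13 at 6 and 1.51, 7.12 and 6.52 at 8 weeks. The ratio of counts over summed totals, Flt3 over WT, was 38.8 (6.83 to 1547) over all times, with its 95% exact counting interval, and 109.9 (19.0 to 4416) at 2 weeks. Of the 112 pooled Flt3 counts 58 came from the 2-week libraries. The Klf4 difference was called at 2 weeks (adjusted p = 2.65e-05), 6 weeks (0.00659) and 8 weeks (0.033) but not at 4 weeks (0.0584), where a call appeared without Flt3 replicate 2 (0.0267). The 6-week call ended without WT replicate 1 (0.0533), and the 8-week call without Flt3 replicate 2 (0.17) or 3 (0.0655) or any of WT replicates 1 (0.128), 2 (0.0668) and 3 (0.0514), all as adjusted p. As in GMP, Klf4 was tested at later times only because of its 2-week counts, and with no filter on low counts the adjusted p was 0.0294 at 4, 0.000571 at 6 and 0.0105 at 8 weeks.

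Cebpd in Flt3 LSK had 12.1, 17.3 and 4.57 CPM at 2 weeks, 11.4, 2.81 and 5.61 at 4, 3.50, 0 and 2.35 at 6 and 2.27, 3.56 and 3.26 at 8 weeks, against 15.1, 33.4 and 25.7 CPM in WT LSK. The libraries of 4 weeks and later lay below WT, and 1 of the 2-week libraries lay within its range. The values at 6 and 8 weeks rest on few counts. A floor of 3 counts is 2.35 CPM in 6-week replicate 3, and 3.56 and 9.79 CPM in 8-week replicates 2 and 3. The log2 fold change was -0.75 ± 0.54, adjusted p = 0.383 at 2 weeks, -1.80 ± 0.55, adjusted p = 0.0341 at 4, -3.32 ± 0.63, adjusted p = 0.000595 at 6 and -3.06 ± 0.69, adjusted p = 0.00372 at 8 weeks. At 4 weeks the call ended without Flt3 replicate 2 (0.124) or 3 (0.14) and WT replicate 2 (0.117) or 3 (0.107), all as adjusted p. It also ended with the replicate block, where only Irf8 stayed called.

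Gfi1 had 12.1, 5.78 and 9.15 CPM at 2 weeks, 16.7, 18.7 and 20.1 at 4, 21.4, 16.9 and 33.7 at 6 and 13.6, 26.1 and 29.4 at 8 weeks in Flt3 LSK, and 22.8, 42.0 and 38.4 CPM in WT LSK. At 2 and 4 weeks no Flt3 library reached WT, and at 6 and 8 weeks the ranges overlapped. The mean log2 fold change of -0.89 ± 0.27, adjusted p = 0.0235 rested on few libraries: it was -0.65, adjusted p = 0.13 without the 2-week libraries, -0.75, adjusted p = 0.135 without WT replicate 2 and -0.78, adjusted p = 0.171 without WT replicate 3. By time it was called at 2 weeks only (-1.62 ± 0.41, adjusted p = 0.00506).

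Of the remaining factors in LSK, Cebpb had a mean log2 fold change of 0.44 ± 0.16, adjusted p = 0.0581, and a call at 6 weeks (0.78 ± 0.19, adjusted p = 0.00787), where it had 235, 222 and 184 CPM in Flt3 LSK and 109, 122 and 155 CPM in WT LSK with no overlap. That call ended without WT replicate 1 (adjusted p = 0.0747) and stood at 0.05 without Flt3 replicate 1, while the mean was called without Flt3 4-week replicate 1 (0.0449), 8-week replicate 2 (0.0295) or WT replicate 3 (0.0379). Spi1 was higher at 2 weeks alone (0.66 ± 0.21, adjusted p = 0.0324), with 175, 266 and 209 CPM in Flt3 LSK, overlapping 142, 145 and 228 CPM in WT LSK. The Spi1 call ended without Flt3 replicate 2 (0.158) or 3 (0.0951), without WT replicate 1 (0.174) or 2 (0.122) and with library size alone (0.237). Cebpa stood at 4.84 to 7.23 CPM in Flt3 2-week LSK, just below 9.12 to 15.0 CPM in WT LSK, and overlapped WT at later times. Cebpa (-0.26 ± 0.35, adjusted p = 0.699) and Runx1 (0.33 ± 0.19, adjusted p = 0.274) were not called, and the 8-week Runx1 value of 0.56 ± 0.24, adjusted p = 0.174 was called without Flt3 replicate 1 (0.017).

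Within Flt3 mice the 2-week libraries stood apart. In GMP 8 of 10 members were lower at 4 to 8 weeks than at 2 weeks and none was higher, where 24.4% of all genes were called and 15.8% called lower. Id2 fell by 3.32 on the log2 scale (SE 0.32) and Klf4 by 2.44 (SE 0.45). Klf4 is among the 8, but it passed the filter on low counts through the 2-week libraries, where it was high. Its fall is therefore a description only. Changes nearer the median of the members (-0.72) were those of Cebpe (-1.33 ± 0.40), Cebpd (-0.93 ± 0.21), Irf8 (-0.74 ± 0.21), Runx1 (-0.71 ± 0.18), Cebpa (-0.65 ± 0.25) and Gfi1 (-0.58 ± 0.21). With library size alone only 4 stayed called, and the median of all genes moved to 0.34 in place of -0.02, with 77.1% of called genes higher in place of 35.4%. The calls that ended there were Cebpa, Gfi1, Irf8 and Runx1, and the same 4 ended with DESeq2, where 20.6% of called genes were higher. With DESeq2 without the near-empty library Irf8 (-0.69, adjusted p = 0.000405) and Runx1 (-0.69, adjusted p = 0.00488) were called, Cebpa and Gfi1 were not (adjusted p = 0.0803 and 0.0554), and 38.1% of called genes were higher. Leaving out 1 of the 3 libraries of 2 weeks left 5 called: the Irf8 change was -0.42, adjusted p = 0.168 without replicate 2, the Cebpd change -0.71, adjusted p = 0.0539 without replicate 3, and Cebpe was -1.24, adjusted p = 0.0883 without replicate 1, -1.04, adjusted p = 0.0744 without replicate 2 and -1.21, adjusted p = 0.0618 without 8-week replicate 3. The Cebpa and Gfi1 calls (adjusted p = 0.0491 and 0.0381) were the least firm, with adjusted p up to 0.271 and 0.227 when 1 library was left out. Of the 10 members, Id2 and Klf4 had no overlap between later and 2-week libraries, where 29.2% of all genes tested had none.

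In LSK 5 of 9 members were lower at 4 to 8 weeks than at 2 weeks, where 17.1% of all genes were called and 11.0% called lower. They were Klf4 (-2.45 ± 0.52), Id2 (-2.17 ± 0.40), Cebpd (-1.98 ± 0.51), Irf8 (-1.44 ± 0.23) and Spi1 (-0.59 ± 0.17). Klf4 passed the filter on low counts through the 2-week libraries here too, so its fall is a description only. The Cebpd change was -1.5, adjusted p = 0.138 without 2-week replicate 2. The Spi1 change was -0.44, adjusted p = 0.166 without that library, -0.58, adjusted p = 0.0959 without 2-week replicate 3 and -0.31, adjusted p = 0.184 with library size alone. Gfi1 went the other way without passing (0.97 ± 0.37, adjusted p = 0.0695), and was called without 8-week replicate 1 (1.12, adjusted p = 0.0306) and with library size alone (1.26, adjusted p = 0.0111), as was Cebpb there (0.55, adjusted p = 0.018). With library size alone the median of all genes was 0.30 in place of 0.01, and 77.2% of called genes were higher in place of 35.4%.

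Markers of other cells moved with the 2-week groups. The 9 basophil and mast cell markers summed to 57492 to 70829 CPM in Flt3 2-week GMP, 885 to 1092 at 4 weeks, 326 to 446 at 6 and 372 to 414 at 8 weeks, against 1284 to 1608 CPM in WT GMP, and all 7 that were tested were lower at 4 to 8 weeks than at 2. The 7 B and plasma cell markers summed to 23869.7 to 70395 CPM in Flt3 2-week LSK, 88.9 to 207 CPM at later times and 638 to 1623 CPM in WT LSK. One of the 9 basophil markers had no count in 2-week GMP, and 1 of the 7 B cell markers had none in 2-week LSK. The 9 macrophage markers summed to 13.7 to 60.8 CPM in Flt3 LSK and 339 to 2189.8 CPM in WT LSK. The macrophage markers were lower at later times as well, with 7 of 8 tested called at each of 4, 6 and 8 weeks. Over the mean of 4 times, 8 of 10 stem cell markers were lower and 1 higher in Flt3 LSK than in WT LSK. They summed to 785 to 1486 CPM in Flt3 LSK and 1783 to 1924 CPM in WT LSK. Of 6 tested erythroid cell markers 5 were lower and 1 higher in Flt3 LSK, at sums of 130 to 433 and 1362 to 1725 CPM. The part of all these markers in the factors' levels was not tested. Without the 2-week libraries Irf8 (2.11, adjusted p = 7.46e-12), Id2 (3.01, adjusted p = 0.00411), Runx1, Gfi1, Cebpd and Cebpe stayed called in Flt3 GMP, and Irf8 (2.68, adjusted p = 0.000155), Id2 (2.42, adjusted p = 0.0307) and Cebpd in Flt3 LSK. The T and NK cell markers summed to 496 to 1571 CPM in Flt3 GMP and 1709.6 to 2172 CPM in WT GMP, and the erythroid cell markers to 36.7 to 253 and 149.6 to 258 CPM. Of the 6 T and NK cell markers, 4 had no count in Flt3 GMP at each of 4, 6 and 8 weeks and 2 had none in WT GMP. Only 1 of them was tested, so their sum rests on few genes. Of the 6 erythroid cell markers 3, 2 and 1 had no count in Flt3 GMP at 4, 6 and 8 weeks. Klf4 could not be fitted without the 2-week libraries because too few counts were left.

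The size of the Flt3 effect differed between LSK and GMP for 2 of 10 members, where 12.4% of all genes were called. Gfi1 fell less in LSK than in GMP, a difference of 0.98 ± 0.32, adjusted p = 0.0338, and Runx1 rose more in GMP, a difference of -0.90 ± 0.28, adjusted p = 0.025. The Gfi1 difference lost its call with median-ratio scaling (0.81, adjusted p = 0.0856), library size alone (0.73, adjusted p = 0.107) and DESeq2 (0.81, adjusted p = 0.223, but an adjusted p of 0.0274 without the near-empty library), with no filter on low counts (0.0503), and without Flt3 2-week LSK replicate 1 (0.0511), WT LSK replicate 1 (0.177) or WT GMP replicates 1 (0.0831), 2 (0.0533) or 3 (0.0751), as adjusted p. The Runx1 difference lost it without WT GMP replicate 1 (-0.69, adjusted p = 0.139), WT LSK replicates 1 (0.111) or 2 (0.0533), Flt3 8-week GMP replicate 3 (0.0519) or the 2-week libraries (0.0731). Cebpe gave -1.87 ± 0.69, adjusted p = 0.0629, called with median-ratio scaling (0.0414) and library size alone (0.0325) and without Flt3 2-week GMP replicate 3 (0.0474) or WT LSK replicate 1 (0.0327), and Irf8 gave 0.77 ± 0.38, adjusted p = 0.198. Cebpe passed the filter on low counts here through GMP as well. The median over all genes was -0.10, moving to -0.27 and -0.35 under those 2 scalings, with 25.8% and 18.3% of called genes above 0 in place of 53.1%, and DESeq2 gave 23.1% over all libraries and 59.1% once the near-empty library was left out.

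**Figure D3:**
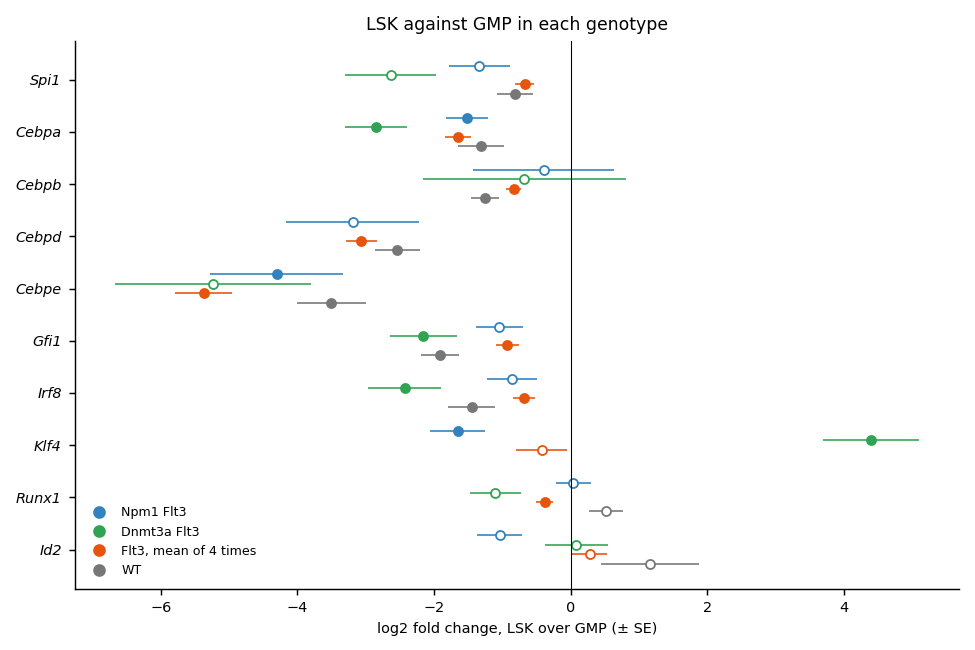
Log2 fold change of LSK over GMP (± SE) for each gene in Npm1 Flt3, Dnmt3a Flt3, Flt3 (mean of 4 times) and WT mice, from top to bottom within each gene. Filled points have an adjusted p under 0.05; Klf4 in WT and Cebpd in Dnmt3a Flt3 are left out because a group had no counts. Cebpa is lower in LSK and called in all 4 genotypes, and Klf4 in Dnmt3a Flt3 is the one called value above 0.

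Partners and regulators of the 10 factors, a list of 35 genes, were counted in the same fits. In Flt3 GMP 12 of 26 tested were higher than in WT GMP and none was lower, with a median log2 fold change of 0.50 against 0.04 over all genes. Among them were Klf2 (4.08 ± 0.32), a zinc-finger relative of Klf4, Id1 (2.27 ± 0.26), another E protein inhibitor, Cbfa2t3 (2.42 ± 0.28), a corepressor related to a Runx1 fusion partner, and Klf6 (2.44 ± 0.33). In Flt3 LSK 5 were higher and 6 lower of 29 tested, with a median of -0.12. The PU.1 relative Spic fell (-3.74 ± 0.44), while Id1 (3.47 ± 0.46), Klf2 (3.08 ± 0.36) and Nfil3 (1.85 ± 0.26) rose. Spic is also expressed by red pulp macrophages, and the macrophage markers were lower in Flt3 LSK as given above, with 8 of 8 tested called; their part in the Spic value was not tested. In WT 13 of 29 were higher in LSK than in GMP and 2 lower, among them Irf2 (1.41 ± 0.23), Tcf4 (1.47 ± 0.25) and Cbfa2t3 (1.88 ± 0.33) on the higher side and Id1 (-2.50 ± 0.47) on the lower. Of 14 tested granule genes 9 were lower in WT LSK (median -3.71), among them Mpo (-3.91 ± 0.29), as were 6 of 15 monocyte and macrophage genes (median -1.24).

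In Flt3 GMP most tested granule genes were lower than in WT GMP, and all tested MHC class II and dendritic cell genes were higher. Of 16 granule and neutrophil genes, which C/EBP factors and Gfi1 are known to act on, 11 were tested in Flt3 GMP against WT GMP, with 9 lower and 1 higher and a median of -1.82. Ms4a3 (-2.23 ± 0.16), the protease gene Ctsg (-1.82 ± 0.17), the calprotectin gene S100a9 (-4.58 ± 0.43) and the haptoglobin gene Hp (-1.30 ± 0.13) fell. Of 14 MHC class II and dendritic cell genes, 13 were tested and all 13 were higher, with a median of 5.50 when 3 genes without WT counts are set at their lower bound. The list summed to 45611 to 71525 CPM in Flt3 2-week GMP, 4244 to 12163 CPM at later times and 1521 to 1716 CPM in WT GMP. Examples are Ifi205 (5.50 ± 0.48), H2-Ab1 (4.76 ± 0.39), Batf3 (4.90 ± 0.52), a factor of cross-presenting dendritic cells, and Cst3 (2.25 ± 0.29). In LSK all 14 were higher (median 4.04), among them Clec9a (4.32 ± 0.66) and Xcr1 (5.41 ± 0.73), and 6 of 11 tested granule genes were lower (median -1.39), among them Elane (-1.76 ± 0.26). By time, 2 granule genes were lower and 1 higher in LSK at 2 weeks (median -0.27), and 6, 6 and 4 were lower at 4, 6 and 8 weeks. Of 15 monocyte and macrophage genes, 13 were tested in GMP with 4 higher and 3 lower (median 0.28), Psap (2.28 ± 0.19) and Ctss (2.10 ± 0.19) among the higher and Fcgr3 (-2.07 ± 0.15) and Ly6c2 (-1.57 ± 0.17) among the lower, and 12 in LSK with 4 higher and 3 lower (median 0.62). The erythroid and megakaryocyte factors, 9 in all, gave 3 lower and none higher in GMP, and 7 lower and none higher in LSK, among them Gata1 (-5.41 ± 0.31).

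Ranked by group mean over the first table, most neighbouring groups overlapped. Gfi1 and Cebpd were highest in WT GMP, which stood clear of the next group, and Gfi1 was lowest in Flt3 2-week LSK, clear of the group above it. Irf8 was highest in the 2-week LSK and GMP of Flt3 mice, followed by later Flt3 GMP, later Flt3 LSK, WT GMP and WT LSK, with gaps between Flt3 6-week LSK and WT GMP and between WT GMP and WT LSK. Id2 was highest in the 2-week GMP and 2-week LSK, clear of the later Flt3 groups, and lowest in WT LSK and then WT GMP, with gaps between Flt3 6-week GMP and WT LSK and between WT LSK and WT GMP. Flt3 4-week LSK and 8-week GMP, though higher on average, each had 1 library within the WT LSK range. Klf4 likewise had a gap after the 2 groups of 2 weeks. For Cebpe and Cebpa the GMP groups came first, with gaps in Cebpe between WT LSK and the Flt3 LSK groups and in Cebpa between Flt3 6-week LSK and the lowest group, Flt3 2-week LSK. Spi1 and Cebpb had no gap at all between neighbours, and Runx1 had 1, above WT GMP as the lowest group.

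Over the 29 full libraries of the first table some of the 10 genes varied together. Pearson's r of log2 CPM was 0.89 for Cebpd with Cebpe, 0.86 for Cebpa with Cebpe, 0.92 for Id2 with Klf4 and 0.80 for Irf8 with Klf4, while Gfi1 with Id2 gave -0.52. These values describe libraries that share a cell fraction, a genotype and a time, and carry no test. Among 9591 other genes, the one most like Cebpe was Elane (r = 0.96), which encodes neutrophil elastase, and the one most like Cebpd was Ms4a3 (r = 0.96). The closest to Id2 was H2-Ab1 (r = 0.99), an MHC class II gene, to Klf4 Cst3 (r = 0.93) and to Irf8 Selplg (r = 0.94). For Cebpa the closest were Rin3 (r = 0.90) and Mpo (r = 0.88), for Gfi1 Adssl1 (r = 0.91), for Spi1 Arpc1b (r = 0.93), for Cebpb Atp8b4 (r = 0.87) and for Runx1 Dpp4 (r = 0.84).

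**Figure D4:**
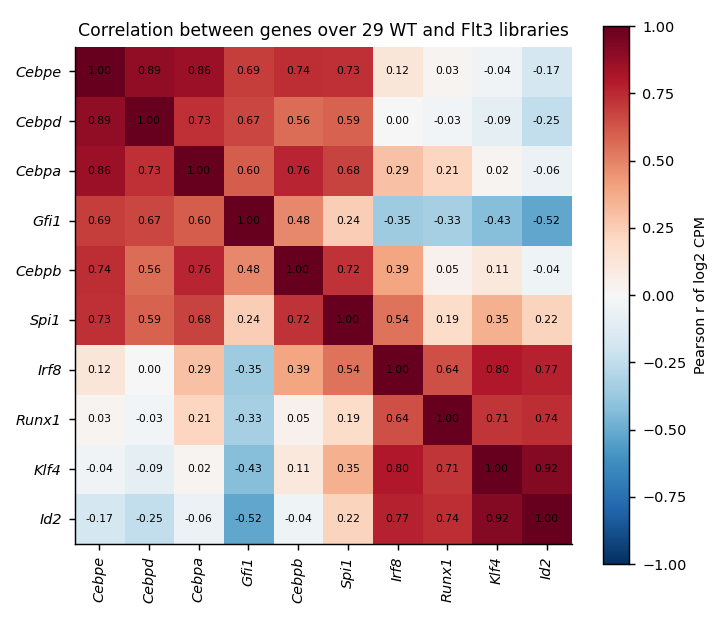
Pearson's r of log2 CPM between each pair of the 10 genes over 29 WT and Flt3 libraries, from blue (−1) to red (1), with the value in each square. Cebpe, Cebpd and Cebpa form a red block (0.73 to 0.89) apart from that of Klf4 and Id2 (0.92).

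With a second mutation, 5 factors were higher in Npm1 Flt3 than in Dnmt3a Flt3 cells, in GMP and in LSK alike: Cebpa, Irf8, Klf4, Runx1 and Id2. No member was lower. All genes gave 20.8% called in GMP (12.5% higher) and 11.6% in LSK (7.80% higher). The members' median log2 fold change was 1.68 in GMP and 2.59 in LSK, against 0.06 and 0.00 over all genes. Each Dnmt3a Flt3 group had only 2 libraries here, and fewer members were called in each fraction when either of them was left out. In GMP fewer of all genes were called then as well. The library codes of Npm1 Flt3 and Dnmt3a Flt3 mice come from separate series, so an effect of genotype cannot be told apart from one of the code series. Mitochondrial genes held 0.697 to 1.24% of counts in Npm1 Flt3 GMP and 0.256 to 0.336% in Dnmt3a Flt3 GMP, and 0.445 to 1.39% in Npm1 Flt3 LSK and 0.381 to 0.423% in Dnmt3a Flt3 LSK, and their part in these differences was not tested.

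Irf8 had 1432, 1936, 1957 and 2310.2 CPM in Npm1 Flt3 GMP, against 230.0 and 196 CPM in Dnmt3a Flt3 GMP, and 1360.1, 982, 2089 and 364 CPM in Npm1 Flt3 LSK, against 39.0 and 59.8 CPM in Dnmt3a Flt3 LSK. Neither pair of groups overlapped. The log2 fold changes were 3.12 ± 0.23, adjusted p = 0.000328 in GMP and 4.64 ± 0.68, adjusted p = 0.00362 in LSK. Id2 had 1737, 651, 836 and 752 CPM in Npm1 Flt3 GMP and 36.0 and 24.8 CPM in Dnmt3a Flt3 GMP, and 866, 424, 651 and 328 CPM in Npm1 Flt3 LSK and 43.5 and 37.0 CPM in Dnmt3a Flt3 LSK. These differences of 5.0 ± 0.53, adjusted p = 0.00137 in GMP and 3.83 ± 0.41, adjusted p = 0.000958 in LSK also came without overlap.

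Klf4 stood at opposite ends of the fractions in the 2 genotypes. It had 74.5, 24.6, 56.0 and 32.9 CPM in Npm1 Flt3 GMP and 31.6, 12.1, 10.7 and 15.6 CPM in Npm1 Flt3 LSK, but 0.0388 and 0.0820 CPM in Dnmt3a Flt3 GMP and 1.77 and 1.60 CPM in Dnmt3a Flt3 LSK. Npm1 Flt3 over Dnmt3a Flt3 gave 9.48 ± 0.79, adjusted p = 0.000531 in GMP and 3.37 ± 0.58, adjusted p = 0.00659 in LSK, and the LSK value was 2.13, adjusted p = 0.0515 when the library with conflicting labels, at 8.29 CPM, is put back, and 3.58, adjusted p = 0.0589 and 3.42, adjusted p = 0.0672 without Dnmt3a Flt3 LSK replicates 2 and 3. LSK over GMP gave -1.66 ± 0.40, adjusted p = 0.0286 in Npm1 Flt3 and 4.40 ± 0.71, adjusted p = 0.00411 in Dnmt3a Flt3 mice. The Npm1 Flt3 value lost its call with library size alone (0.064), with the conflicting libraries back (0.102) and without GMP replicates 1 (0.0965) or 3 (0.0594) or LSK replicates 2 (0.111), 3 (0.0598) or 4 (0.0662), and the Dnmt3a Flt3 value without GMP replicate 1 (0.0677), all as adjusted p. The difference between the 2 genotypes in this contrast was not tested. In Dnmt3a Flt3 GMP Klf4 lay at or near the floor of 3 counts, which is 0.0388 CPM in replicate 1 and 0.0273 CPM in replicate 3. It could be tested between the genotypes in GMP only through Npm1 Flt3 GMP, where it is high, so its GMP call is a description only. The fitted values of 9.48 and 4.40 are not to be read as measured ratios.

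Cebpa had 24.6, 16.2, 30.2 and 30.3 CPM in Npm1 Flt3 GMP, against 6.15 and 7.82 CPM in Dnmt3a Flt3 GMP, and 14.5, 9.90, 7.99 and 8.58 CPM in Npm1 Flt3 LSK, against 1.04 and 1.39 CPM in Dnmt3a Flt3 LSK. Within each fraction the ranges did not overlap. The log2 fold changes were 1.81 ± 0.35, adjusted p = 0.0113 and 3.09 ± 0.58, adjusted p = 0.00944, with adjusted p of 0.0683 to 0.104 in GMP and 0.077 to 0.106 in LSK when 1 Dnmt3a Flt3 library was left out. Runx1 had 48.4, 43.0, 76.8 and 57.9 CPM in Npm1 Flt3 GMP and 32.7 and 21.0 CPM in Dnmt3a Flt3 GMP, and 81.2, 69.8, 36.6 and 76.4 CPM in Npm1 Flt3 LSK and 16.5 and 14.8 CPM in Dnmt3a Flt3 LSK, again without overlap. Its values were 1.04 ± 0.30, adjusted p = 0.0463 in GMP and 2.10 ± 0.37, adjusted p = 0.00717 in LSK. The GMP call ended without Npm1 Flt3 GMP replicate 1 (0.0599), 3 (0.0745) or 4 (0.0756) or Dnmt3a Flt3 GMP replicate 1 (0.0971) or 3 (0.324), and the LSK call without Dnmt3a Flt3 LSK replicate 2 (0.0506) or 3 (0.0655) or with the conflicting library back (0.0525), as adjusted p.

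Cebpe, Gfi1, Cebpd, Spi1 and Cebpb were not called between the 2 genotypes. Cebpe had 1.65, 5.31, 2.23 and 10.7 CPM in Npm1 Flt3 GMP, below 19.8 and 25.0 CPM in Dnmt3a Flt3 GMP with no overlap, at -2.23 ± 0.68, adjusted p = 0.0554. That value was called with the conflicting library back (0.0314), with median-ratio scaling (0.0496), with DESeq2 (0.00301), with no filter on low counts (0.0269) and without Npm1 Flt3 GMP replicate 4 (0.0167). Gfi1 gave 0.75 ± 0.34, adjusted p = 0.176 in GMP and 1.78 ± 0.53, adjusted p = 0.0545 in LSK, and was called with the conflicting library back in GMP (0.0488) and in LSK (0.0168), without Npm1 Flt3 GMP replicate 1 (0.0424) or LSK replicate 3 (0.0331), and in LSK with DESeq2 (0.00299). Cebpd had 1.67, 0.712, 2.97 and 3.54 CPM in Npm1 Flt3 GMP and 0.194 and 0.382 CPM in Dnmt3a Flt3 GMP (2.88 ± 1.00, adjusted p = 0.0814), called with the conflicting library back (0.0214) and with DESeq2 (0.00587). In LSK Cebpd had 96 counts over the Npm1 Flt3 libraries and none over the 2 Dnmt3a Flt3 libraries, at least 11.8-fold higher by the floor of 3 counts over the summed total and not called (adjusted p = 0.0977; 0.0334 with the conflicting library back). Spi1 gave -0.04 ± 0.58 in GMP and 1.21 ± 0.54 in LSK, and Cebpb 1.55 ± 1.26 and 1.78 ± 1.53. Cebpb lay at 0.204 to 0.960 CPM in Npm1 Flt3 and 0.0610 to 0.234 CPM in Dnmt3a Flt3 cells. Its group means were 0.575 and 0.189 CPM in GMP of these genotypes, but 242 to 303 CPM in Flt3 GMP of the first table. A difference between cells cannot be told apart here from one in how the 2 tables were made. These low Cebpb levels therefore do not show that the cells lack it. The same limit holds for Spi1 and Cebpd. Spi1 group means lay at 4.28 to 21.4 CPM in the second table and 167 to 302 CPM in the first. In GMP those of Cebpd lay at 0.288 to 2.22 CPM and 31.6 to 108 CPM. Irf8 group means overlapped between the tables, at 49.4 to 1909 CPM and 118 to 1645 CPM.

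Among the 35 partners and regulators, 16 were higher and none lower in Npm1 Flt3 GMP (median 1.24), and 19 were higher and none lower in Npm1 Flt3 LSK (median 1.65). Examples in GMP are the orphan receptor gene Nr4a1 (9.94 ± 0.58), Trib1 (4.48 ± 0.41), whose product drives breakdown of C/EBP alpha, Klf6 (4.13 ± 0.42) and Bcl6 (3.22 ± 0.42), and in LSK Klf2 (7.36 ± 0.70), Egr1 (4.62 ± 0.59), Tcf3 (2.25 ± 0.33) and Zeb2 (3.69 ± 0.57). The MHC class II and dendritic cell list had 12 of 14 higher in GMP (median 7.65) and 14 of 14 in LSK (median 5.22). The monocyte and macrophage list had 13 of 15 and 11 of 15 higher and none lower, among them the chemokine receptor gene Ccr2 (4.19 ± 0.21 in GMP) and Mpeg1 (7.42 ± 0.55 in LSK), which encodes a pore-forming protein of phagocytes. Of 15 tested granule genes 8 were higher and 1 lower in each fraction, among the higher Camp (16.19 ± 1.38 in GMP). A fitted log2 value of this size is not to be read as a measured ratio. In Dnmt3a Flt3 GMP 1 gene of the list had no count. The summed level of the granule list went the other way in GMP, at 19396 to 51858 CPM in Npm1 Flt3 and 60082 to 62174 CPM in Dnmt3a Flt3 with no overlap. Mpo alone lay at 11294 to 33401 and 50235 to 52205 CPM there. Median Elane (7635 and 4401 CPM) and Prtn3 (3085 and 1561 CPM) were higher in Npm1 Flt3 GMP. In LSK the sums overlapped, at 2104 to 3871 CPM in Npm1 Flt3 and 3643 to 4416 CPM in Dnmt3a Flt3. Of the erythroid and megakaryocyte factors 1 was higher and 2 lower in GMP and 2 higher in LSK. The 9 macrophage markers summed to 84.9 to 202 CPM in Npm1 Flt3 GMP and 44.1 to 59.9 CPM in Dnmt3a Flt3 GMP, with 4 of 8 tested higher. The basophil and mast cell markers summed to 132 to 359 CPM and 1590.2 to 1857 CPM in those groups, with 5 of 7 tested lower. Their part in the factors' differences was not tested.

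Between the fractions of these mice, 3 factors were lower in Npm1 Flt3 LSK than in Npm1 Flt3 GMP, where 4.62% of all genes were called and 2.27% called lower, and 3 lower and 1 higher in Dnmt3a Flt3 LSK than in Dnmt3a Flt3 GMP, where 1.87% were. Cebpa was lower in both (-1.51 ± 0.31, adjusted p = 0.0109 in Npm1 Flt3 and -2.85 ± 0.46, adjusted p = 0.00423 in Dnmt3a Flt3). The Dnmt3a Flt3 call ended without LSK replicate 2 (0.11) or GMP replicate 3 (0.0537). Cebpe was lower in Npm1 Flt3 LSK (0, 0.361, 0.328 and 0.403 CPM, against 1.65, 5.31, 2.23 and 10.7 CPM in GMP, -4.31 ± 0.98, adjusted p = 0.0208), with no overlap, a call that ended without LSK replicate 2 (0.0645) or GMP replicate 4 (0.0564). Gfi1 (-2.15 ± 0.49, adjusted p = 0.0389) and Irf8 (-2.43 ± 0.54, adjusted p = 0.0327) were lower in Dnmt3a Flt3 LSK, and both calls ended with any single Dnmt3a Flt3 library left out (adjusted p 0.238 to 0.327 for Gfi1 and 0.148 to 0.381 for Irf8), with median-ratio scaling (0.0669 and 0.0544) and with library size alone (0.143 and 0.0839). Cebpd was at least 13.2-fold lower in Dnmt3a Flt3 LSK and not called (adjusted p = 0.0656), though called with DESeq2 (0.00339) and with the conflicting libraries back (0.0115). Of the called genes 30.98% were higher in Dnmt3a Flt3 LSK (54.8% with library size alone) and 50.9% in Npm1 Flt3 LSK (73.3%). That scaling moved the median over all genes to 0.44 and 0.31, in place of 0.11 and 0.12.

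**Figure D5:**
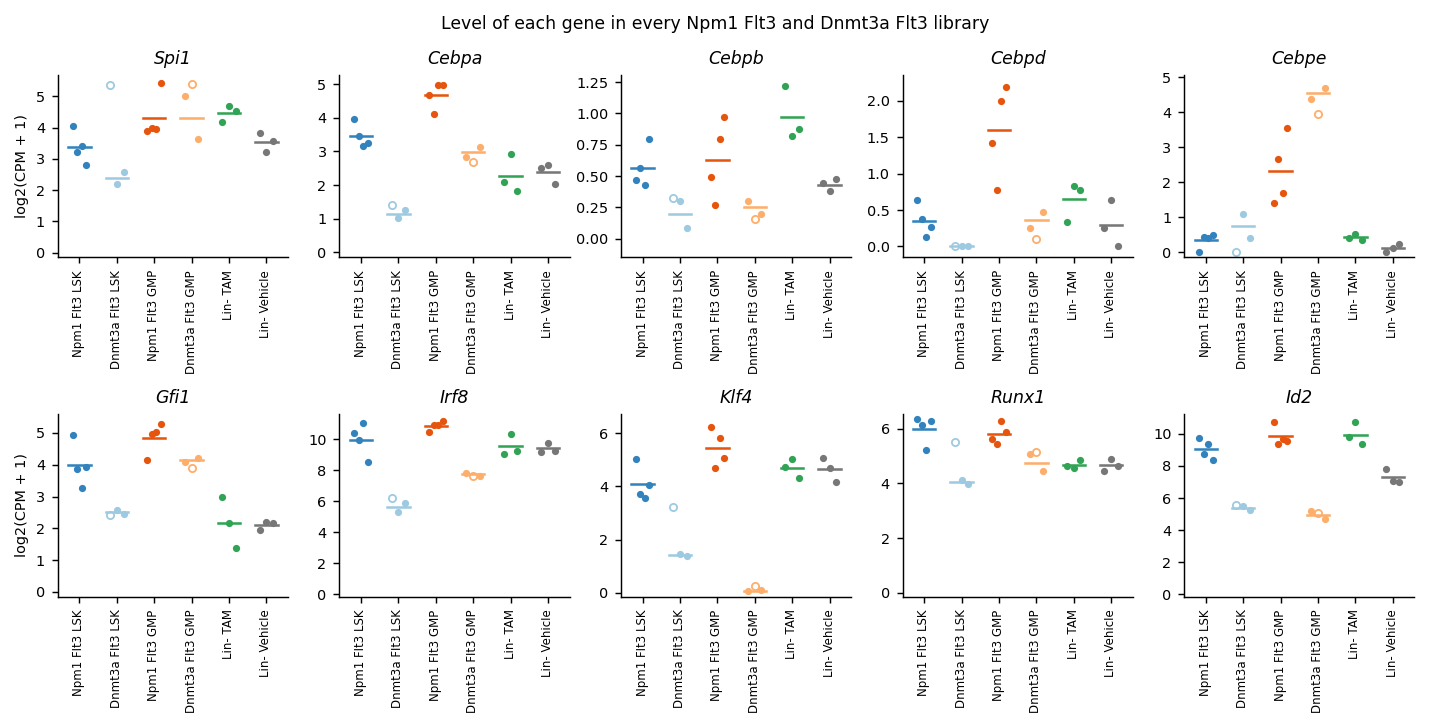
Level of each gene as log2(CPM + 1) in every library of the second table: Npm1 Flt3 and Dnmt3a Flt3 LSK, Npm1 Flt3 and Dnmt3a Flt3 GMP, and TAM and vehicle Lin- HSPCs, from left to right. Points are libraries, lines are group means, and open points are the 2 libraries with conflicting labels, left out of the means. Irf8, Klf4 and Id2 stand higher in Npm1 Flt3 than in Dnmt3a Flt3 in both fractions, and Id2 stands higher with TAM than with vehicle.

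After 7 days of TAM, which deletes the mutant Flt3 allele in Npm1 Flt3 mice, Id2 was higher in Lin- HSPCs and Klf4 and Runx1 were called lower, 3 of 9 members tested where 31.4% of all genes were called. Id2 had 876, 1682 and 657 CPM with TAM, against 228, 132 and 128 CPM with vehicle. The groups did not overlap, and the log2 fold change was 1.62 ± 0.40, adjusted p = 0.00231. The call did not hold with median-ratio factors (1.28, adjusted p = 0.0683), and the value was 1.04, adjusted p = 0.0121 without TAM replicate 2, the highest library. Flt3 RNA, both alleles counted together, lay at 83.3 to 183 CPM with TAM and 160.1 to 209 CPM with vehicle.

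The 2 lower calls rest on the scaling. Klf4 had 25.7, 31.6 and 18.9 CPM with TAM and 32.9, 25.0 and 17.1 CPM with vehicle, and Runx1 had 24.0, 22.4 and 27.8 CPM with TAM and 20.9, 29.1 and 23.7 CPM with vehicle. Both pairs of groups overlapped. With TMM factors the log2 fold changes were -1.15 ± 0.39, adjusted p = 0.0237 for Klf4 and -1.27 ± 0.39, adjusted p = 0.0122 for Runx1, and with library size alone they were 0.0270, adjusted p = 0.945 and 0.0114, adjusted p = 0.972. The median over all genes was 0.56 with TMM, 0.30 with median-ratio factors and 1.64 with library size alone, with 32.1%, 28.3% and 81.5% of called genes higher, so Klf4 and Runx1 lay below the median of all genes in each, and Id2 above it in each. Without TAM replicate 1 or vehicle replicate 2 neither was called (adjusted p 0.106 and 0.0789 for Klf4, 0.0559 and 0.0571 for Runx1), nor was Klf4 without TAM replicate 3 (0.148).

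Irf8 had 518, 1290.0 and 618 CPM with TAM and 593, 862 and 617 CPM with vehicle, which overlapped, and its value of -1.0 ± 0.43, adjusted p = 0.0736 was called with median-ratio factors (0.0444), with no filter on low counts (0.037) and without TAM replicate 2 (0.00255) or vehicle replicate 1 (0.00417). Cebpa gave -1.26 ± 0.60, adjusted p = 0.0977 and Gfi1 -1.02 ± 0.61, adjusted p = 0.183, both called with median-ratio factors (0.00739 and 0.0254), and Cebpa also with DESeq2 (0.0268). Spi1 had 16.9, 24.6 and 22.2 CPM with TAM and 13.3, 8.36 and 11.0 CPM with vehicle, which did not overlap although the value relative to other genes was -0.17 ± 0.41. Spi1, Cebpb (0.26 ± 0.84) and Cebpd (-0.23 ± 1.03) were not called, and Cebpe, at 0.265 to 0.432 CPM with TAM and 0 to 0.171 CPM with vehicle, did not pass the filter on low counts. Markers of other cells moved with TAM. The 9 macrophage markers summed to 957 to 1624 CPM, against 127 to 153 CPM with vehicle, with 7 of 9 called higher, the 6 erythroid markers to 1019 to 1762 CPM, against 201 to 345 CPM, and the MHC class II and dendritic cell list to 36229.7 to 46021 CPM, against 6931 to 10181 CPM. None of these markers was at 0 in either group. The granule and neutrophil list summed to 2717 to 4187 CPM with TAM and 5583 to 6862 CPM with vehicle, with 5 of 15 tested lower, among them Mpo (-4.78 ± 0.47) and Prtn3 (-5.06 ± 0.45), and 7 higher. The monocyte and macrophage list gave 3 lower and none higher of 15, among them F13a1 (-1.94 ± 0.41), while its summed level was higher, at 19261 to 31002 CPM with TAM and 11256 to 14434 CPM with vehicle with no overlap. Of the 35 partners and regulators 10 were higher, among them Ets1 (2.92 ± 0.41), and 8 lower, among them Id1 (-3.64 ± 0.47) and Myc (-2.94 ± 0.41), with a median of -0.19 against 0.56 over all genes. The part of these shifts in the factors' levels was not tested.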

How the data were processed

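The authors deposited raw read counts per gene symbol in 2 tables, for RNA of sorted cells. The submitters' processing notes name STAR, featureCounts and the mm10 build, with no versions. Per the labels' protocols libraries came from single-end or paired-end kits, not given by sample. Sample codes and titles set the groups, and no column belonged to another series.

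The deposited counts were analysed in R 4.3.3 with edgeR 4.0.16 (filterByExpr, TMM factors, robust quasi-likelihood F test) and Benjamini-Hochberg adjustment over all genes tested, at a threshold of 0.05. GMP and LSK of Flt3 and WT mice were fitted as 15 libraries each, contrasts between fractions over all 30 libraries of the first table, and the second table in separate fits. SEs are the log2 fold change divided by the square root of F. Levels divide by library totals, whereas fold changes are relative to TMM factors. The floor used for a count of 0 was 3 counts. Alternatives were DESeq2 1.42.0, median-ratio factors, library size alone, no filter, a replicate block, and leaving out each library, the near-empty library or the 2-week libraries; the last and library size alone were added after the data were seen. The 10 members and all lists were chosen with earlier results of these data known. Of each list, the text names up to 4 called genes of smallest p, and for likeness the nearest named genes by log2 CPM with a prior count of 2. None of 52 replicate pairs agreed within sampling noise (chi-square per degree of freedom at least 2.35).

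The fits were tested on simulated counts. Only genes above a set minimum of expected counts in a library of median size were changed, so the shares do not cover members with few counts, such as Klf4 and Cebpe in LSK. In fits of WT and Flt3 libraries 99 to 100% of 4-fold and 61 to 87% of 2-fold changes were called. For Npm1 Flt3 over Dnmt3a Flt3 these shares were 52% and 12% in GMP and 44% and 2% in LSK. They were 59% and 17% for Npm1 Flt3 LSK against GMP and 57% and 3% for TAM against vehicle. A member not called in the second table, or one with few counts in the first, may thus still differ. Intervals and floors cover counting error only.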

Additional observations from a re-analysis of the deposited data

Results flagged for a closer look

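In Npm1 Flt3 GMP, 1 library stood far above the other 3 for a pair of members. Id2 was at 1737 CPM in replicate 1 and 651 to 836 CPM in the others. Spi1 was at 42.2 CPM in replicate 4 and 13.8 to 14.8 CPM in the others. These are 2 of 20 gene and group pairs examined for a library apart from its group, and chance marks about 1 in 20. Without replicate 1, Id2 in GMP gave 4.58, adjusted p = 0.000231, and without replicate 4, Spi1 gave -0.60, adjusted p = 0.392, for Npm1 Flt3 over Dnmt3a Flt3.

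The Flt3 effect differed between LSK and GMP for Gfi1, by 0.98 on the log2 scale (LSK minus GMP, adjusted p = 0.0338, edgeR quasi-likelihood test), and for Runx1, by -0.90 (adjusted p = 0.025). Gfi1 was lower than WT on average in both fractions, by more in GMP. Runx1 was higher than WT in GMP and was not called in LSK.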

How the results depend on the processing

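Of 104 called members recomputed per setting over all comparisons, 92 stayed called in the same direction with DESeq2, 97 with median-ratio factors, 89 with library size alone, 99 with no filter on low counts and 95 with the replicate block, and of 968 recomputed without 1 library 860 did. Both reversals were Klf4 (0.0270, adjusted p = 0.945) and Runx1 (0.0114, adjusted p = 0.972) after TAM with library size alone. With DESeq2 without the near-empty library 56 of 58 did. Values past the threshold in neither setting changed sign in 92 of 1331 cases. The causes were not tested unless stated.

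The number of members called moved by over 1.5 times in the comparisons below, and the number of all genes called moved too. With the conflicting library back it was 5403 in place of 3571 for Npm1 Flt3 over Dnmt3a Flt3 GMP. With DESeq2 it was 2188 in place of 980 for Npm1 Flt3 LSK against GMP, and 1021 in place of 397 for Dnmt3a Flt3. With library size alone it rose while fewer members were called, from 2224 to 3803 for Flt3 GMP after 2 weeks and from 7926 to 11399 for TAM. For the Flt3 effect, LSK minus GMP, 2 were called, and 1 with DESeq2 (2 without the near-empty library), with no filter and without the 2-week libraries, and 0 to 3 leaving out 1 library, with 0 without WT GMP replicate 1. For Flt3 GMP at 4 to 8 weeks against 2 weeks, 8 were called, 4 with DESeq2 (6 without the near-empty library) and with library size alone, and 5 to 8 leaving out 1 library. In Flt3 LSK the mean gave 5 members, and 3 without the 2-week libraries, where Klf4 did not pass the filter on low counts. At 4 weeks it gave 2, and 4 with no filter, and 1 to 3 leaving out 1 library. At 6 weeks it gave 5, and 2 to 4 leaving out 1 library (2 without WT LSK replicate 1), and at 4 to 8 weeks against 2 weeks 5, and 3 to 6. Flt3 8-week GMP gave 7, and 3 to 7, with 3 without replicate 3, which leaves 1 full library. Npm1 Flt3 over Dnmt3a Flt3 gave 5 in GMP, 8 with the conflicting library back and 3 to 5 leaving out 1 library, and in LSK 5, and 2 to 6. Npm1 Flt3 LSK against GMP gave 3, 7 with DESeq2 and 1 to 4 leaving out 1 library. Dnmt3a Flt3 LSK against GMP gave 4, 7 with DESeq2, 2 with median-ratio factors or library size alone and 1 to 2 leaving out 1 library, where the lone library is assumed to vary like the other groups. TAM against vehicle gave 3, 5 with median-ratio factors, 1 with library size alone and 1 to 4 leaving out 1 library.

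The labels do not say what a replicate or code number marks. Deviations of WT or Flt3 LSK and GMP libraries with the same code number correlated at -0.0552 to 0.209 over 14 pairs, and 21 of 28 libraries correlated best with their own number, as a hint from the data. Between libraries of the same title number the range was 0.0273 to 0.281 (5 of 8) for Npm1 Flt3 LSK and GMP, where 1 pair has different code numbers, and 0.0835 to 0.233 (4 of 6) for TAM and vehicle, whose codes share no number. With the replicate block the Flt3 effect, LSK minus GMP, had 4 members called, adding Cebpe (-1.85, adjusted p = 0.0368) and Irf8 (0.83, adjusted p = 0.00987), and TAM against vehicle had 5. Flt3 LSK against WT LSK had 4, 1, 4 and 3 at 2, 4, 6 and 8 weeks, in place of 5, 2, 5 and 4.

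Depth limits Klf4 and Cebpe in Flt3 and WT LSK, which had few counts, and Dnmt3a Flt3 groups rest on 2 libraries each.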
